A study of Mus musculus with 12 samples.

Results

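The genes of the proteasome were followed across 4 groups of mouse hearts. They were all protein-coding genes whose symbol begins with Psma, Psmb, Psmc, Psmd, Psme, Psmf or Psmg. The rule found 50 genes among the 21980 protein-coding genes of the 56350 gene identifiers in the table. 49 of them encode subunits, regulators or assembly factors of the proteasome. The other match, Psmc3ip, is a factor of meiotic recombination that shares only the prefix, and it is counted by the rule and given apart. A total of 46 members had a normalised read count of at least 10 in at least 3 libraries and were tested. The 4 that were not tested were Psma8, the testis variant of an alpha subunit, which had values of 4.44 to 19.6, and Psmb11, Psmd10 and Psme2b, which had no read in any library. The immunoproteasome subunits Psmb8, Psmb9 and Psmb10 were set apart from the constitutive subunits.

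Polyadenylated RNA of the left ventricular apex was sequenced 8 weeks after surgery in 12 libraries, 3 per group. One pair of groups came from lincRNA-p21 global knockout mice after sham surgery or after transverse aortic constriction (TAC), which narrows the aorta and makes the left ventricle pump against pressure. The other pair came from littermates with the same surgeries, whose genotype the labels give as lincRNA-p21 heterozygous. They are called controls here, so that every control carried 1 altered allele and no wild-type heart was compared. lincRNA-p21 is a long noncoding RNA that p53 induces, and its gene symbol is Trp53cor1. The sources used here do not give the age, sex or strain of the mice or say whether each library came from 1 animal, so p-values measure the spread between these samples.

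The proteasome is the barrel-shaped protease that degrades proteins tagged with ubiquitin. Its 20S core is a stack of alpha and beta rings, in which Psmb5, Psmb6 and Psmb7 encode the subunits with chymotrypsin-like, caspase-like and trypsin-like activity. Interferon exchanges these for Psmb8, Psmb9 and Psmb10 and so forms the immunoproteasome, which cuts peptides for presentation on MHC class I. The 19S cap, made of the Psmc ATPases and the Psmd non-ATPase subunits, binds and unfolds the tagged protein. Psme1 and Psme2 form the PA28 cap in its place, Psme4 encodes the PA200 cap, and Psmg1 to Psmg4 help to assemble the core. In heart muscle the proteasome turns over damaged and sarcomeric proteins, and it has been studied in hypertrophy and heart failure. The Psm genes tend to be switched on together by the transcription factor NRF1, the product of Nfe2l1, when proteasome activity is short.

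Each library held between 10323605 and 13238934 reads in genes, and proteasome genes made up 0.364% to 0.437% of them. Trp53cor1 had 0 reads in the 6 knockout libraries, and 0 to 4 reads in each control library, so it was too low to check the labels of single libraries. Control sham replicate 3 and knockout TAC replicate 3 stood apart from their groups on the second principal component, with scores of −46.8 and −15.6 against 5.63 and 8.75 in the other control sham libraries and 22.9 and 33.7 in the other knockout TAC libraries. Values below are normalised read counts, that is, reads scaled by a size factor, given in the order of replicates 1 to 3 or as mean ± SD with n = 3. A difference is one of log2(value + 1) ± SE from limma-trend over 13916 genes. A gene is said to have risen or fallen where the Benjamini-Hochberg adjusted p over all these genes was under 0.05. The log2(value + 1) scale slightly understates the changes of genes with low counts.

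Per length, proteasome genes were found at widely different levels in control sham hearts. Psmc3, a 19S ATPase, had 109 ± 18.7 RPKM (reads scaled to exon length and library size, mean ± SD, n = 3), Psmc5 106 ± 15.7 and the alpha subunit Psma6 106 ± 13.0, and these neighbours did not differ beyond their spread. Among the beta subunits, Psmb2 had 95.7 ± 9.89 RPKM, Psmb6 86.3 ± 15.7, Psmb5 40.2 ± 7.80 and Psmb7 25.8 ± 3.44. The lowest constitutive subunits were Psma5 at 8.96 ± 1.46 and Psma3 at 4.39 ± 0.295 RPKM. Of the immunoproteasome subunits, Psmb10 stood at 28.5 ± 11.2 RPKM, in the range of the constitutive genes, and Psmb8 at 5.40 ± 1.50 and Psmb9 at 3.69 ± 1.31. Lengths are those of all annotated exons of a gene together, so the level of a gene with long, rarely used exons is understated. The sources used here do not say how reads that fit several places were counted, so levels of genes with close copies are uncertain. Pseudogenes named after Psmb5, Psmb6 and Psmb7 held 8, 2 and 0 reads in all libraries together. Copies with other names were not searched for, and dropped reads would not show in these numbers. Whether Psmb11, Psmd10 and Psme2b lacked reads for this reason was not tested.

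**Figure D1:**
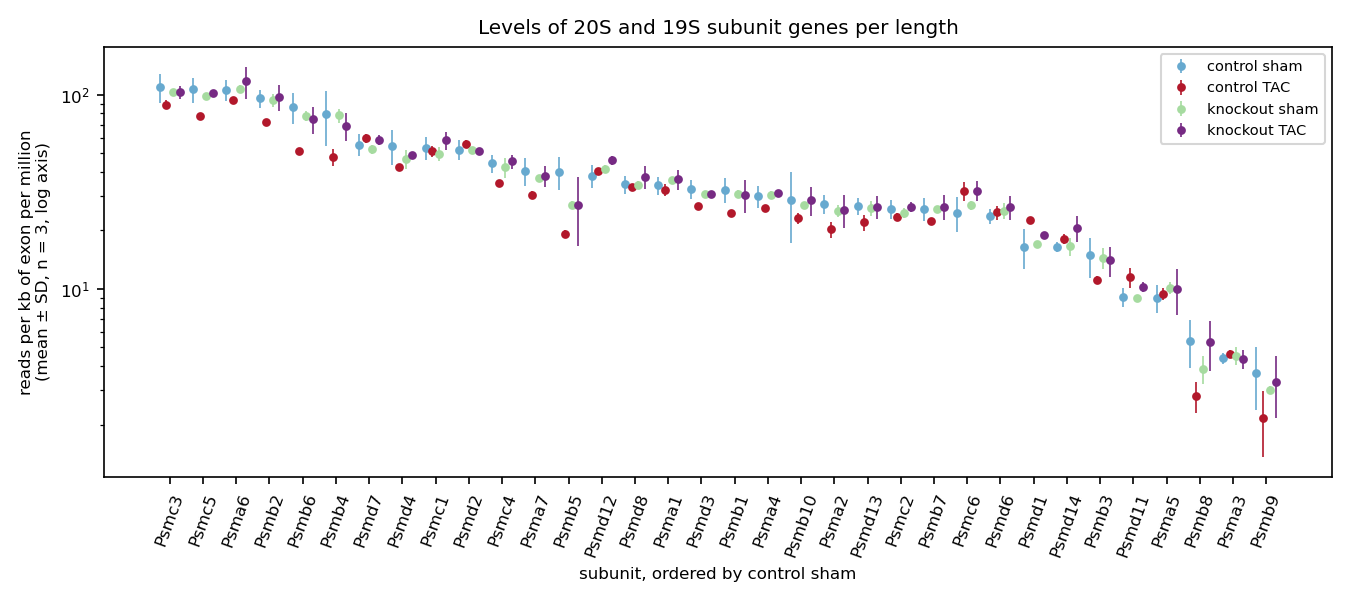
Levels of the 34 tested 20S and 19S subunit genes per length, in RPKM on a log axis, ordered by the control sham mean; points are means and bars SD over 3 libraries in each of the 4 groups. Levels run from about 109 for Psmc3 to 3.69 for Psmb9 in control sham hearts, and the control TAC points of Psmb6, Psmb5 and Psmb8 lie below those of the other groups.

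Under TAC in control hearts 3 of the 6 catalytic subunits, Psmb5, Psmb6 and Psmb8, and both PA28 subunits had lower messages. The caspase-like subunit Psmb6 fell by 39.3%, the chymotrypsin-like Psmb5 by 51.5%, its immunoproteasome counterpart Psmb8 by 47.0% and the PA28 subunit Psme1 by 39.0%, in fold changes of the fitted values. In all, 10 of the 46 members tested fell and 0 rose: Psma7, Psmb4, Psmb5, Psmb6, Psmb8, Psmc5, Psmd9, Psme1, Psme2 and Psmg1. Over all 13916 genes tested, 10.6% fell and 11.0% rose, 21.6% in either direction. The 10 members are 21.7% of those tested. The median difference over the members was −0.24 against 0.01 over all genes, with 33 members below 0 and 13 above. In 20 members every control TAC library lay below every control sham library (17.7% of all genes did), and in 2, Psmd1 and Psmd11, above (17.7%). At an unadjusted p under 0.05, 20 members were lower (17.5% of all genes) and 4 higher (18.0%), and Psmd1 was higher with DESeq2 while edgeR's quasi-likelihood test called 0 higher. In RNA of whole tissue, fewer cells of a type and less RNA per cell cannot be told apart.

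The count rested in part on single libraries. It was 20 (18 lower, 2 higher) without control sham replicate 1, where 26.3% of all genes passed in either direction. It was 6, with Psmd1 as higher, without control sham replicate 2 (15.6% of all genes). It was 5 without control TAC replicate 1 (13.9%) and 5 without control TAC replicate 2 (11.1%). When only the 6 control libraries were fitted, 4 members fell (10.3% of all genes passed), and DESeq2 called 16, with Psmd1 as higher (24.0%). With both libraries that stood apart left out, a setting added after the data were seen, 14 fell and 0 rose by limma and 22.4% of all genes passed in either direction. Psmb6, Psmb8 and Psme1 fell in each of the 12 fits that left out 1 library and in all 13 other alternatives. In fits without a knockout library the differences in controls stay the same, and only the shared spread and the set of genes tested change.

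**Figure D2:**
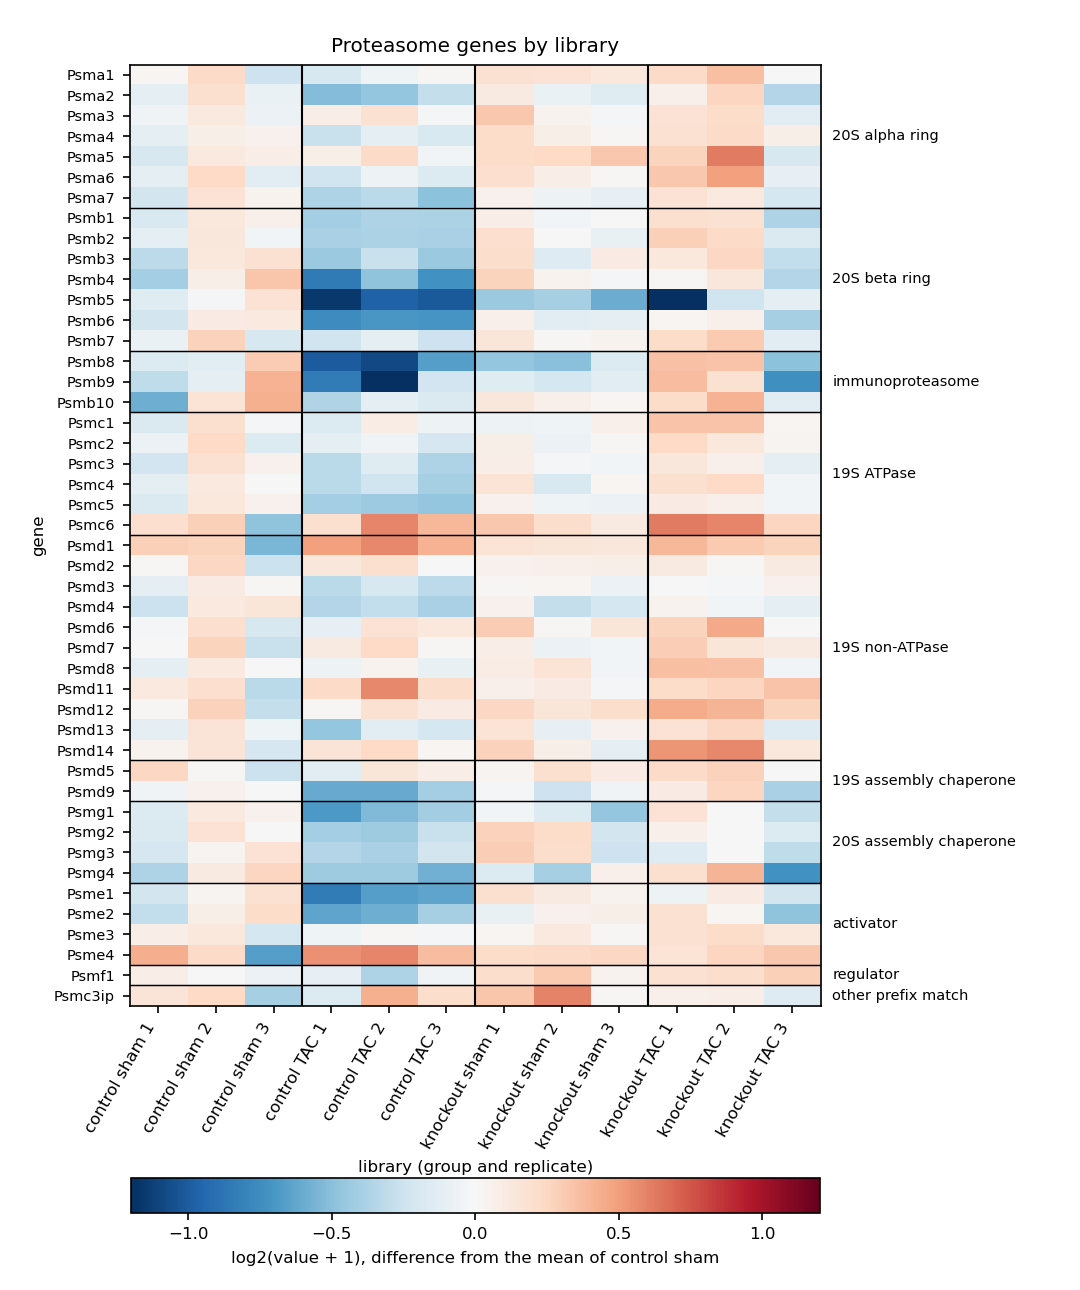
Each row is one of the 46 tested genes and each column one of the 12 libraries; colour is the difference of log2(value + 1) from the mean of the 3 control sham libraries, blue for lower and red for higher, with the scale ending at 1.2 in either direction. The 3 control TAC columns are mostly blue through the beta ring, the immunoproteasome, the 20S assembly chaperones, Psme1 and Psme2, and mostly pale or red through the 19S non-ATPase rows.

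All 7 constitutive beta subunits had differences below 0, with a median of −0.39, and 3 of them fell. Psmb6 had 1559.8, 1939.6 and 1970.4 in control sham and 1073, 1119.7 and 1107 in control TAC hearts. Its knockout values were 1886, 1651 and 1673 after sham and 1847, 1886 and 1373 after TAC. The 3 control TAC libraries were close to each other and lay below all 9 others. The gene lies at chr11:70525367-70527858 on the plus strand of GRCm38.p6. The difference in controls was −0.72 ± 0.14 (limma adjusted p = 0.00279).

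Psmb5 had 365, 399 and 457 in control sham and 182, 207 and 200.4 in control TAC hearts, the steepest fall of the members at −1.04 ± 0.22 (limma adjusted p = 0.00473). The groups did not overlap. In knockouts it had 298, 307 and 268 after sham and 168, 343 and 374 after TAC, where replicate 1 was lower than every other library and replicates 2 and 3 lay above the knockout sham range. The gene lies at chr14:54614119-54618022 on the minus strand, and an exon holds the microRNA gene Mir686 on the same strand over 109 bases. Psmb7, the trypsin-like subunit, had 941, 1204 and 872 in control sham and 846, 921 and 836 in control TAC hearts. Its groups touched only through control sham replicate 3, and the difference of −0.20 ± 0.14 did not pass (limma adjusted p = 0.342).

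Psmb4 carries no active site and takes part in dimerising the partly built core. It had 1285, 1787 and 2139.97 in control sham and 942, 1219.6 and 1029 in control TAC hearts, and fell by 0.68 ± 0.18 (limma adjusted p = 0.0137) with no overlap. The other non-catalytic beta subunits Psmb1, Psmb2 and Psmb3 had differences of −0.39 ± 0.15, −0.39 ± 0.14 and −0.38 ± 0.17, and none of these passed (limma adjusted p from 0.0545 to 0.113).

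**Figure D3:**
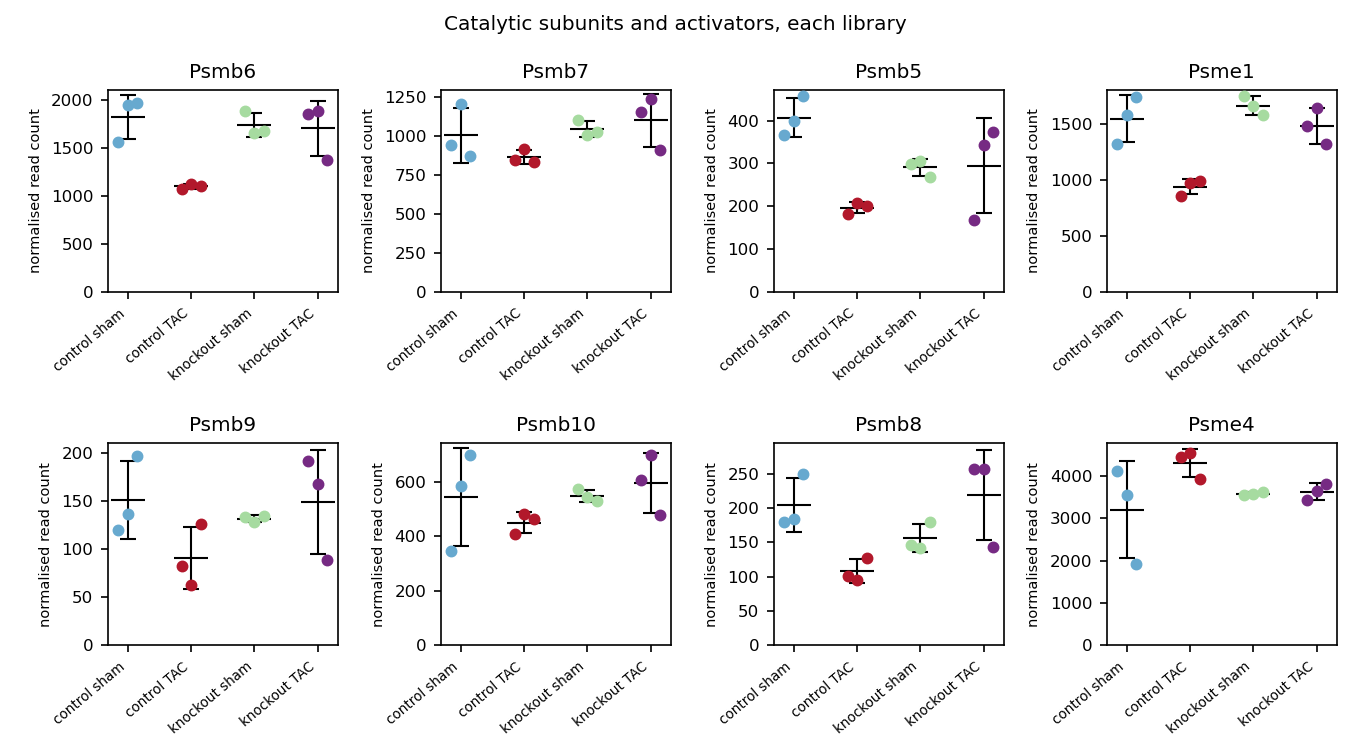
Normalised read counts of the catalytic subunits Psmb5 to Psmb10 and of the activators Psme1 and Psme4 in each library; points are the 3 libraries of a group, and the horizontal line and bars are mean ± SD. The control TAC points of Psmb6, Psmb5, Psmb8 and Psme1 lie below all control sham points, those of Psme4 lie above 2 of the 3.

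The promoters of the catalytic subunits that fell were read for the letters that NRF1 and interferon-activated factors are known to bind. The RefSeq windows of build GRCm38.p6 hold the 250 bases before a gene's start, and 42 members had one. The windows of Psmb6 and Psmb5 are shown because these constitutive catalytic genes fell most and both hold the core TGACNNNGC of the antioxidant response element, as does that of Psmd9, a chaperone of the 19S base that also fell. They lie on the plus strand at chr11:70525107-70525356 for Psmb6, the minus strand at chr14:54617996-54618245 for Psmb5 and the plus strand at chr5:123227940-123228189 for Psmd9, and are written 5′ to 3′ with the base before the start last. The last 27 bases of the Psmb5 window lie in an annotated exon. The Psmd9 window lies inside that gene as GENCODE M21 annotates it, at chr5:123169413-123250131, with 0 bases in its annotated exons. The start meant for Psmd9 is therefore that of RefSeq. Capitals mark the motif, and in Psmd9 also the interferon-stimulated element, which is GAAA repeated after 2 free bases.
Psmb6: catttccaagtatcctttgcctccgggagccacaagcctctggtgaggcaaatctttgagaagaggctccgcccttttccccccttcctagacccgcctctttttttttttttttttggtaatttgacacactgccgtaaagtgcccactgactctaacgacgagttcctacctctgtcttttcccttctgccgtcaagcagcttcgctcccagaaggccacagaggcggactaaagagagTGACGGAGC
Psmb5: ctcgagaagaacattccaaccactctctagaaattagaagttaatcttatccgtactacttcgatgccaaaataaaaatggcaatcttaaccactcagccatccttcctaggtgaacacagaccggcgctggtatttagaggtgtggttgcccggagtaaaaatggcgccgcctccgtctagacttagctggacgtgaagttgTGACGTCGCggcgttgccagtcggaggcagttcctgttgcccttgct
Psmd9: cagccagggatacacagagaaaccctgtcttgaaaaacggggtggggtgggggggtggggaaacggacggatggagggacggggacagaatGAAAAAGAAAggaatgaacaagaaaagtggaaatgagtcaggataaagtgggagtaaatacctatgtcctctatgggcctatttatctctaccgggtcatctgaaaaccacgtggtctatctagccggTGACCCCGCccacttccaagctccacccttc
The core ends at the last base before the start in Psmb6, and spans bases 47 to 39 before it in Psmb5 and 31 to 23 in Psmd9. It was found on either strand in the windows of 5 members (Psmb5, Psmb6, Psmc6, Psmd12 and Psmd9), 11.9% of them, against 10.1% of all 27025 promoter windows. Psmc6 and Psmd12 hold it too and did not fall, with differences of 0.39 ± 0.18 and 0.10 ± 0.14. For Psmb8, a stretch of 29 bases on the plus strand at chr17:34198088-34198116 is shown for its match to TTCNNNGAA, the gamma-activated site through which interferon gamma acts, in capitals. All 250 bases of that RefSeq window lie in annotated exons of GENCODE M21, whose start of Psmb8 is further upstream, so the stretch is exonic there.
Psmb8: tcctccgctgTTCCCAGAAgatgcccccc
That motif was found in the windows of 2 members, Psmb8 and Psmg1, 4.76% of them against 7.18% of all windows. The interferon-stimulated element stood in the windows of 3 members (7.14% against 3.04%) and CCAAT, the NF-Y box, in 15 (35.7% against 34.5%). Both strands were searched for each motif. These matches are descriptions of letters and not of binding.

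Of the immunoproteasome subunits 1 of 3 fell. Psmb8 had 180.1, 184 and 250.1 in control sham and 101, 94.8 and 128 in control TAC hearts, and its knockout values were 146, 142 and 180.02 after sham and 258, 257 and 144 after TAC. The control groups did not overlap, and the difference was −0.92 ± 0.22 (limma adjusted p = 0.0089). Psmb9 had 119, 137 and 197 in control sham and 82.2, 62.8 and 126 in control TAC hearts, and replicate 3 of the latter fell inside the sham range. Its difference was −0.76 ± 0.29 (limma adjusted p = 0.0682). Psmb10 ranged more widely among control sham libraries (346, 585 and 699) than among control TAC libraries (407, 481 and 463), which lay inside that range, and its difference was −0.21 ± 0.20 (limma adjusted p = 0.485). Psmb8 (chr17:34197721-34201454) and Psmb9 (chr17:34181987-34187764) are neighbours in the MHC region, with Psmb10 on another chromosome. Psmb8 shares 498 exon bases with Gm20496 and Psmb9 212 with Tap1, in both cases on the opposite strand. The library kit marks strand, but the sources used here do not say whether the counting used it, so reads of the overlapping genes may be mixed.

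Each immunoproteasome message was set against its constitutive counterpart per length, without a test. The ratio of Psmb8 to Psmb5 was 0.133 ± 0.0115 in control sham and 0.146 ± 0.0239 in control TAC hearts, that of Psmb9 to Psmb6 0.0421 ± 0.00793 and 0.0420 ± 0.0149, and that of Psmb10 to Psmb7 1.11 ± 0.450 and 1.04 ± 0.0737 (mean ± SD, n = 3). Each of these pairs of means differed by less than the larger SD of its groups. Summed over the 3 subunits of each kind, the ratio was 0.241 ± 0.0529 in control sham and 0.302 ± 0.0206 in control TAC hearts, 0.260 ± 0.00879 in knockout sham and 0.290 ± 0.0395 in knockout TAC hearts. The control means differed by more than the larger SD. Single values were 0.191, 0.237 and 0.296 in control sham and 0.284, 0.298 and 0.325 in control TAC hearts, so that the groups overlapped only through control sham replicate 3, one of the libraries that stood apart. Each sum is led by its most abundant gene, Psmb10 at 28.5 and Psmb6 at 86.3 RPKM in control sham hearts, which are not counterparts. The summed ratio can therefore move without a shift in any of the pairs. In knockouts the Psmb8 to Psmb5 ratio was 0.144 ± 0.0301 after sham and 0.237 ± 0.156 after TAC, where single libraries ran from 0.102 to 0.408. The highest of these was replicate 1, the library in which Psmb5 was low.

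In the alpha ring, which forms the gate of the core, 1 of 7 subunits fell and 5 were below 0, with a median of −0.16. Psma7 had 1201, 1577 and 1441 in control sham and 1083, 1116 and 991 in control TAC hearts, without overlap, and a difference of −0.40 ± 0.14 (limma adjusted p = 0.0484). That call was close to the threshold, and it ended in 10 of the 12 fits that left out 1 library, with an adjusted p up to 0.161. Psma2 had the lowest difference of the ring, −0.42 ± 0.15, which did not pass (limma adjusted p = 0.0579), with 1047, 1298 and 1069 in control sham and 791, 819 and 929 in control TAC hearts. The highest was that of Psma5, at 0.09 ± 0.19.

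Of the 17 subunits of the 19S cap 1 fell, with a median of −0.03. Of the 6 ATPases, which form the ring that unfolds the substrate, 1 fell, and the median was −0.20. Psmc5 had 1478, 1824 and 1730.5 in control sham and 1259.9, 1237 and 1209 in control TAC hearts, without overlap, a difference of −0.44 ± 0.12 (limma adjusted p = 0.0157). Psmc6, another ATPase of the same ring, had the opposite sign at 0.39 ± 0.18 (limma adjusted p = 0.13), with 1111, 1178 and 690.1 and 1102, 1455 and 1278. The groups overlapped, and control sham replicate 3 was the lowest library of all 12.

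Of the 11 non-ATPase subunits 0 passed by limma, and the median was 0.10. At an unadjusted p under 0.05 there were 2 higher and 2 lower. Psmd1, the large scaffold of the base, had 1624, 1599.7 and 909 in control sham and 1875, 1989 and 1775 in control TAC hearts, which did not overlap. Its difference of 0.50 ± 0.17 fell just short (limma adjusted p = 0.0513). Psmd1 passed as higher with DESeq2, TMM scaling, no filter, a filter of 50 and a replicate block. It also passed as higher without control sham replicate 1 and without control sham replicate 2. Psmd14, the deubiquitinase of the lid, stood at 0.14 ± 0.15 and the ubiquitin receptor Psmd4, the lowest of the group, at −0.34 ± 0.14 (limma adjusted p = 0.541 and 0.0795). Psmd1 shares exon bases with Gm21972 on the same strand and with Htr2b on the other, and Psmg3 shares them with Gm26938 on the same strand. Psma4, Psma5, Psmb7, Psmc3, Psmc3ip, Psmd3, Psmd9, Psmd13 and Psme1 each overlap a gene on the opposite strand.

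Among the assembly factors, all 4 chaperones of the core had differences below 0, with a median of −0.42, and Psmg1 fell. Psmg1 had 206, 251 and 239.9 in control sham and 143, 159.7 and 172 in control TAC hearts, a difference of −0.55 ± 0.16 (limma adjusted p = 0.027). Its partner Psmg2 had −0.37 ± 0.15, and Psmg3 and Psmg4 had −0.32 ± 0.21 and −0.48 ± 0.25, and none of these passed (limma adjusted p from 0.0974 to 0.303). In each of the 4 chaperones the control TAC libraries lay below all control sham libraries, as in 17.7% of all genes. For Psmg3 the gap was less than the value of 1 read, from 57.8 in control TAC replicate 3 to 58.6 in control sham replicate 1. Psmd9, a chaperone of the 19S base, had 268, 286 and 275 and 182, 181 and 208, again without overlap, and fell by 0.54 ± 0.16 (limma adjusted p = 0.0262). Psmd5, which acts at the same step, had 0.03 ± 0.15. The calls of Psmg1, Psmd9 and Psme2 ended in 4, 3 and 9 of the 12 fits that left out 1 library. For Psmg1 and Psmd9 each of these fits left out a control library. For Psme2 they left out libraries of both genotypes, every control TAC library among them.

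Of the 4 activators tested 2 fell, Psme1 and Psme2, with a median of −0.28. Psme1 had 1320.1, 1574 and 1738 in control sham and 859, 967 and 987 in control TAC hearts, and 1749, 1654 and 1575 and 1475, 1640.4 and 1317 in knockouts. The 3 control TAC libraries lay below the other 9, and the difference in controls was −0.71 ± 0.13 (limma adjusted p = 0.00199). Psme1 lies at chr14:55578123-55581529 on the plus strand. Psme2, its partner in PA28, fell by 0.54 ± 0.18 (limma adjusted p = 0.0427), with 192, 247 and 274 in control sham and 151, 157 and 178 in control TAC hearts. Psme3, the nuclear PA28 gamma, was at −0.02 ± 0.12. Psme4, the PA200 cap, had 4128, 3562 and 1925 in control sham and 4448, 4561 and 3943 in control TAC hearts, where the groups overlapped only through control sham replicate 1. Its difference of 0.50 ± 0.20 did not pass (limma adjusted p = 0.0866). The inhibitor Psmf1 was at −0.17 ± 0.13 and the unrelated Psmc3ip at 0.16 ± 0.28, with adjusted p of 0.389 and 0.731 from limma.

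Differences under TAC in controls moved with transcript length and GC content across all genes, and proteasome transcripts are short. The median length of the longest annotated transcript was 1895 bases over the 46 members and 3351 over all genes tested. Among transcripts under 2 kb the median difference was −0.32 over 29 members and −0.31 over 3098 genes. Between 2 and 4 kb it was −0.17 over 15 members and −0.05 over 5580 genes, and over 4 kb it was 0.26 over 2 members and 0.24 over 5233 genes. Across genes, which are not independent replicates, Spearman's rho of the difference with length was 0.383 over members and 0.409 over all genes, and with GC content −0.616 and −0.437. With the trend of length and GC content removed from each library, 7 members fell and 0 rose by limma (Psma2, Psmb6, Psmb7, Psmb8, Psmc2, Psmd9 and Psme1), where 6.47% of all genes fell and 4.10% rose (10.6% together), and the median over members was −0.14. Of the 10 members that fell without that step, 4 fell with it.

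Among these, Psmb6 had a difference of −0.47 with the trend removed (limma adjusted p = 0.00909), Psmb8 −0.73 (limma adjusted p = 0.0296), Psme1 −0.42 (limma adjusted p = 0.0237) and Psmd9 −0.49 (limma adjusted p = 0.0471). Psmb5 kept its sign at −0.62 and no longer passed (limma adjusted p = 0.0978), and Psma7 moved to −0.02 and Psmc5 to −0.22. Psme4, the longest transcript of the group, moved from 0.50 ± 0.20 to 0.07. Psma2 and Psmb7, whose transcripts are of low GC content, passed with the trend removed and not in the same fit without that step, at −0.69 and −0.43 (limma adjusted p = 0.00482 and 0.0352). Set against the interquartile range of all genes of like length, 28 members lay within, 9 below (Psma2, Psmb4, Psmb5, Psmb6, Psmb8, Psmb9, Psmd3, Psmd9 and Psme1) and 9 above (Psma5, Psmc3ip, Psmc6, Psmd1, Psmd6, Psmd7, Psmd11, Psmd12 and Psmd14). What the trend with length and GC content reflects was not tested.

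**Figure D4:**
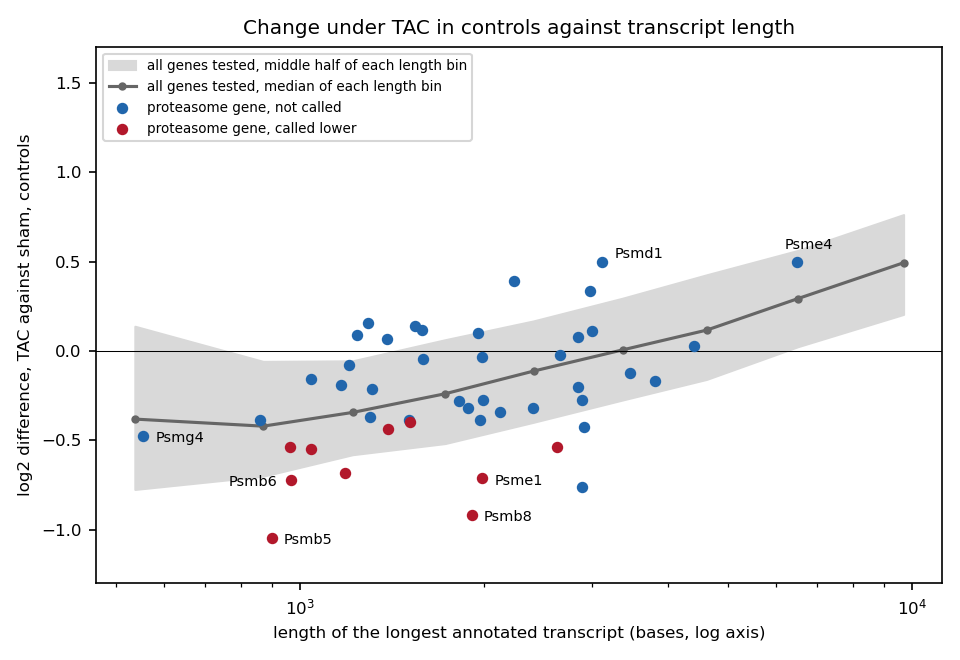
Difference of log2(value + 1) between TAC and sham in controls against the length of the longest annotated transcript in bases, on a log axis; blue and red points are the 46 tested proteasome genes, the grey line is the median and the grey band the interquartile range of all tested genes in each length bin. The grey line rises from −0.42 between 700 and 1000 bases to 0.49 above 8000 bases. Of the members 28 lie within the band, 9 below it, among them Psmb5, Psmb6, Psmb8 and Psme1, and 9 above it.

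In knockout hearts no proteasome gene passed between TAC and sham by limma (adjusted p of 0.735 or more), where 0.00719% of all genes, a single one, rose and 0.00% fell. In 5 members every TAC library lay above every sham library (8.31% of all genes), and in 0 below (8.87%). The median over members was 0.06. At an unadjusted p under 0.05 only Psmd14 was higher, at 0.33 ± 0.15 (3.17% of all genes were higher and 3.51% lower), and edgeR and DESeq2 also called 0. With voom and quality weights 4 members were higher, Psmd14, Psmc1, Psmc6 and Psmb8. The catalytic genes Psmb5, Psmb6 and Psmb7 stood at −0.06 ± 0.22, −0.04 ± 0.14 and 0.06 ± 0.14. Psmb8 was at 0.45 ± 0.22, Psmb9 at 0.10 ± 0.29 and Psmb10 at 0.10 ± 0.20. All 17 subunits of the 19S cap had differences above 0, from 0.01 to 0.33, with a median of 0.13.

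After sham surgery, no member passed between knockouts and controls by limma, edgeR, DESeq2 or voom, and 0.00% of all genes passed by limma. The median over members was 0.05. At an unadjusted p under 0.05 only Psmb5 was lower in knockouts (1.92% of all genes were lower and 2.42% higher), at −0.48 ± 0.22 (limma adjusted p = 0.934). Its 3 knockout sham values, 298, 307 and 268, all lay below the lowest control sham value. Psmb8 was at −0.38 ± 0.22, also without overlap, and Psma5 lay above without overlap, so that 2 members were separate on the lower side (4.68% of all genes) and 1 on the higher (4.94%). For Psmb8 the gap was less than the value of 1 read, from 180.02 in knockout sham replicate 3 to 180.06 in control sham replicate 1. Psmb6, Psmb7, Psmb9 and Psmb10 were at −0.06 ± 0.14, 0.07 ± 0.14, −0.16 ± 0.29 and 0.07 ± 0.20 (limma adjusted p from 0.967 to 0.979).

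After TAC, 7 of 46 members were higher in knockouts than in controls and 0 lower by limma: Psmb2, Psmb4, Psmb6, Psmb8, Psmc4, Psmc5 and Psme1. Over all genes, 4.10% rose and 4.13% fell, 8.23% in all. The 7 members are 15.2% of those tested, and the median over members was 0.34 against 0.01 over all genes, with 41 members above 0. In 20 members every knockout TAC library lay above every control TAC library (15.6% of all genes), and in 2, Psmd1 and Psme4, below (15.5%). At an unadjusted p under 0.05, 25 members were higher (13.0% of all genes) and 0 lower (12.0%), and edgeR called 8 higher and 0 lower. This comparison shares the 3 control TAC libraries with that of TAC against sham in controls, so the fall there and the difference here rest on the same low values, and 5 genes are in both sets (Psmb4, Psmb6, Psmb8, Psmc5 and Psme1).

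The 7 calls depended on which libraries were fitted. Without control TAC replicate 1, or without knockout TAC replicate 2, 0 members passed by limma (2.43% and 1.46% of all genes did). Without control TAC replicate 2 only Psme1 of the 7 passed (1.92% of all genes). Without knockout TAC replicate 1 all 7 calls were lost, and Psmb5, which is not among them, passed at 0.87 (limma adjusted p = 0.0158; 1.54% of all genes). Of the 7, 3 passed without control TAC replicate 3 (7.63% of all genes) and 4 without knockout sham replicate 2 (5.74%). Without knockout TAC replicate 3, one of the libraries that stood apart, 21 members rose (14.1% of all genes passed in either direction), and without control sham replicate 3, the other, 13 did (15.5%). With both left out, a setting added after the data were seen, 29 rose and 1 fell, where 24.2% of all genes passed. DESeq2 called 12 (12.2% of all genes) and voom with quality weights 32 (27.4%). The direction of the 7 was kept in every one of these fits. The 2 TAC groups did not overlap in any of the 7, so leaving out libraries could not reverse it. This comparison also moved with transcript length and GC content. Spearman's rho of the difference with length was −0.437 over members and −0.473 over all genes, and with GC content 0.550 and 0.164. Genes are not independent replicates here. After removal of the length and GC trend 4 members rose (Psmb6, Psmb8, Psme1 and Psmf1), where 2.74% of all genes rose and 1.50% fell, 4.24% together.

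Psmb8 had the largest difference, 0.98 ± 0.22 (limma adjusted p = 0.0144), with 258, 257 and 144 in knockout and 101, 94.8 and 128 in control TAC hearts. All 3 knockout values were higher, and replicate 3 came close to the controls. Psme1 was higher by 0.65 ± 0.13 (limma adjusted p = 0.00942) and Psmb6 by 0.62 ± 0.14 (limma adjusted p = 0.0164), both with no overlap. Psmb4, with 1722, 1871 and 1328 against 942, 1219.6 and 1029, was higher by 0.62 ± 0.18 (limma adjusted p = 0.043). Psmb2, a structural beta subunit, had 1591, 1526 and 1157 against 997, 1000.2 and 993 in the control TAC libraries, which were nearly equal, a difference of 0.50 ± 0.14 (limma adjusted p = 0.0344).

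Psmc5 had 1788, 1742 and 1637 in knockout TAC hearts, above all 3 control TAC values, and a difference of 0.48 ± 0.12 (limma adjusted p = 0.0217). Psmc4, a neighbouring ATPase, had 1242, 1279 and 1061 against 864, 919.8 and 820.4 and a difference of 0.46 ± 0.13 (limma adjusted p = 0.0376). The remaining catalytic genes did not pass. Psmb5 was at 0.50 ± 0.22, Psmb7 at 0.33 ± 0.14, Psmb9 at 0.70 ± 0.29 and Psmb10 at 0.39 ± 0.20 (limma adjusted p from 0.137 to 0.254). For Psmb5, knockout TAC replicate 1 lay below the 3 control TAC libraries and the other replicates above them. Without that library the difference of Psmb5 was 0.87 and passed (limma adjusted p = 0.0158). For Psmb9, replicate 3 lay within the control TAC range. Psmd1 and Psme4, whose differences under TAC in controls were the highest of the members, had the lowest differences among proteasome subunits and caps at −0.17 ± 0.17 and −0.25 ± 0.20. Psmc3ip was at −0.16 ± 0.28.

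**Figure D5:**
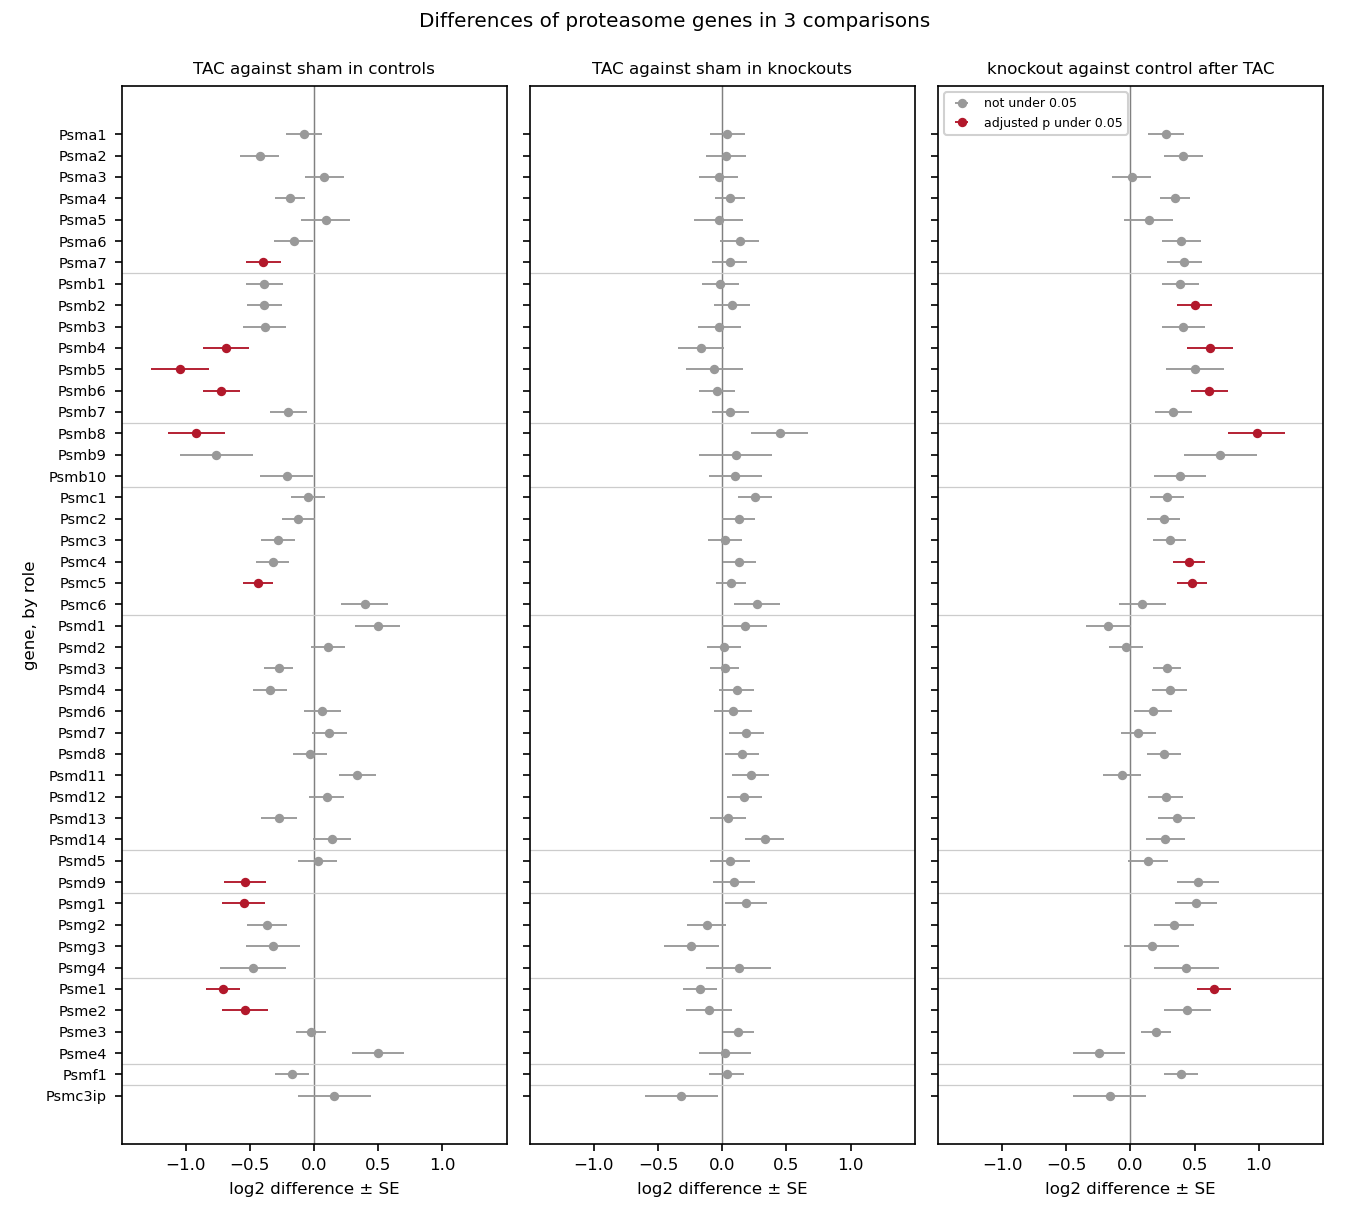
Differences of log2(value + 1) ± SE for the 46 tested genes, grouped by role, in TAC against sham in controls, TAC against sham in knockouts, and knockout against control after TAC; red points have a limma adjusted p under 0.05. In the left panel 10 genes are red and below 0, in the middle panel 0 are red, and in the right panel 7 are red and above 0.

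Whether TAC acted differently in knockouts and controls was tested as the difference of the TAC effects, and 0 members passed by limma, where 0.0144% of all genes were higher and 0.295% lower, 0.309% in all. The smallest adjusted p was that of Psmb8, 0.0665, with a difference of the effects of 1.36 ± 0.31. Psmb5 stood at 0.98 ± 0.32, Psmb6 at 0.68 ± 0.20, Psmb7 at 0.26 ± 0.20, Psmb9 at 0.86 ± 0.40 and Psmb10 at 0.32 ± 0.29 (limma adjusted p from 0.123 to 0.624). The median over members was 0.29 against about 0 over all genes. At an unadjusted p under 0.05 there were 12 members higher (7.27% of all genes) and 0 lower (9.21%), DESeq2 called 4 (Psmb5, Psmb6, Psmb8 and Psmc5; 3.33% of all genes), voom 14 (11.3%) and edgeR 0 (0.287%). Without control sham replicate 1 there were 4 calls (5.46% of all genes) and without knockout TAC replicate 3 there were 3 (2.05%). Without knockout TAC replicate 1 there was 1 (0.151%), Psmb5, at 1.35 (limma adjusted p = 0.0162). With both libraries that stood apart left out there were 12, all higher, where 8.46% of all genes passed. The calls under TAC in controls and their lack in knockouts are therefore not shown to differ at this number of libraries by the limma test.

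By group, the mean was lowest in control TAC hearts for 33 of the 46 members and highest in knockout TAC hearts for 29. These and the library counts below were not made over all genes, so whether they are particular to proteasome genes was not tested. Within groups the libraries did not move together evenly. The median member of knockout TAC replicates 1 and 2 was 0.18 and 0.23 above the control sham mean on the log2 scale, and that of replicate 3 was −0.12. Knockout TAC replicate 2 held the highest value of 16 members. Control sham replicate 3 held the lowest value of 13 and the highest of 7. Within its group it was the lowest for Psme4 and Psmd1, and the highest for Psmb4, Psmb8, Psmb9 and Psmb10. The 3 control TAC libraries had median members of −0.32, −0.14 and −0.22.

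Other genes that work with the proteasome were read from a list, of which 27 are given here. Under TAC in controls 2 of them rose and 2 fell (11.0% and 10.6% of all genes), with a median of 0.10. Ubb, which encodes a chain of ubiquitin, had 1281 ± 183 after sham and 850.1 ± 19.6 after TAC, a difference of −0.58 ± 0.14 (limma adjusted p = 0.00786). Sem1, a small lid subunit without the prefix, fell by 0.44 ± 0.15 (limma adjusted p = 0.0476). Values of Ubb and Sem1 with the trend of length and GC content removed are not given here. The ubiquitin ligase Ube3c, which sits on the proteasome, and Ecpas, which binds and remodels it, rose by 0.55 ± 0.18 and 0.52 ± 0.16 (limma adjusted p = 0.0383 and 0.0268), and after the trend of length and GC content was taken out they were at 0.29 and 0.07, which did not pass. Nfe2l1, which encodes NRF1, was at 0.33 ± 0.15 and its relative Nfe2l2 at 0.37 ± 0.20 (limma adjusted p = 0.119 and 0.202).

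In knockouts against controls after TAC, 0 of the 27 rose and 1 fell (4.10% and 4.13% of all genes), with a median of 0.01. Ddi2, the protease that cuts NRF1 into its active form, was lower by 0.61 ± 0.16 (limma adjusted p = 0.0302). Pomp, which closes core assembly, was at 0.45 ± 0.16 and Sem1 at 0.49 ± 0.15 (limma adjusted p = 0.0859 and 0.0556). Without the length and GC trend Ddi2 was at −0.16.

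Of 12 genes that work with the immunoproteasome in antigen presentation, 3 fell under TAC in controls (10.6% of all genes did), with a median of −0.43. These were Tapbp, the tapasin of the peptide loading complex, at −0.66 ± 0.12, the peptide transporter subunit Tap2 at −0.62 ± 0.15, and the MHC class I gene H2-D1 at −0.58 ± 0.18 (limma adjusted p = 0.00178, 0.0086 and 0.0294). Values of Tapbp, Tap2 and H2-D1 with the trend of length and GC content removed are not given here. Tap1, which lies beside Psmb9, was at −0.54 ± 0.22 (limma adjusted p = 0.0949). In knockouts against controls after TAC 0 of 12 passed by limma (8.23% of all genes did), and Tap1 came nearest at 0.73 ± 0.22 (limma adjusted p = 0.0523). At an unadjusted p under 0.05, 5 were higher (13.0% of all genes) and 0 lower (12.0%).

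Markers of macrophages, immune cells that express the immunoproteasome, gave 0 calls of 8 by limma in either comparison and 0 at an unadjusted p under 0.05. Their medians were −0.20 under TAC in controls and 0.01 in knockouts against controls after TAC. Their summed normalised count was 3004 to 3907 in control sham, 2385 to 3840.2 in control TAC and 2387 to 3407 in knockout TAC hearts. Of 12 lymphocyte and other leukocyte markers 4 were abundant enough to be tested, and the T cell receptor genes Cd3d, Cd3e and Cd3g had means under 5 in all 4 groups. The pan-leukocyte gene Ptprc rose under TAC in controls, by 0.61 ± 0.19 (limma adjusted p = 0.0277), and not once the trend of length and GC content was taken out (limma adjusted p = 0.666). Endothelial markers had a median of −0.37 with 0 of 6 called by limma (3 lower at an unadjusted p under 0.05). Their summed count was 11858 to 20281 in control sham and 11034 to 12562 in control TAC hearts, which overlapped.

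Some markers of other cells also differed between these groups, not all in one direction. Over all genes, 10.6% fell and 11.0% rose under TAC in controls. Under TAC in controls 5 of 6 mesothelial and 3 of 5 erythroid markers fell, with summed counts of 126 to 455 and 6154 to 6724 in control sham hearts against 12.4 to 64.9 and 2403 to 4113 in control TAC hearts. Of the 6 fibroblast markers 1 rose, and their sum was 8736 to 10299.7 after sham and 11442 to 12095 after TAC. Among 8 cardiomyocyte markers Tnni3, Tnnt2 and Myl2 fell and Ryr2 rose, and their sum was 933401 to 938385 in control sham against 741098 to 822814 in control TAC hearts. In knockouts against controls after TAC, 5 cardiomyocyte markers rose and 1 fell, 3 fibroblast markers fell, and 2 mesothelial and 2 erythroid markers rose. Over all genes, 4.10% rose and 4.13% fell there. The part of these markers in the proteasome differences was not tested.

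Other large complexes gave a measure beside which the proteasome can be read. Under TAC in controls, where 10.6% of all genes fell, lists of other complexes were read in the same way. The median was −0.77 over 45 genes of respiratory complex I, of which 37 fell, and −0.38 over 74 cytosolic ribosomal proteins, of which 16 fell. It was 0.02 over 7 subunits of the cytosolic chaperonin CCT, of which 0 passed by limma and 1 was lower at an unadjusted p under 0.05. The proteasome median of −0.24 lay between. After removal of the length and GC trend, medians were −0.49 for complex I, −0.14 for the ribosomal proteins, −0.09 for CCT and −0.14 for the proteasome. In knockouts against controls after TAC, 4.10% of all genes were higher. Complex I had a median of 0.64 with 36 of 45 higher, and the ribosomal proteins 0.36 with 3 of 74 higher. CCT had a median of 0.11 with 0 of 7 called by limma and 2 higher at an unadjusted p under 0.05. The proteasome, at 0.34, was close to the ribosomal proteins. No test was made between these lists.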

How the data were processed

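Polyadenylated RNA was read in 12 libraries, 3 for each of 4 groups. Libraries were made with a stranded kit, per the labels' protocols, and STAR, SAMtools and featureCounts with build GRCm38.p6 are named in the submitters' processing notes without versions. Annotation and strand setting were not given in the sources used here. Values in the deposited table are a signal: the authors divided gene reads by a size factor for each library, as the values show, since 100% came out whole within 0.01 when the step was undone. Of 56350 identifiers, 55480 matched GENCODE M21, and the other 870 held 0.0013% of reads. Total reads per library ran from 10323605 to 13238934.

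The 13916 genes that reached 10 in 3 or more libraries were fitted with limma-trend (limma 3.58.1, R 4.3.3, robust moderation) on log2(value + 1), with 4 group means over all 12 libraries and 5 contrasts, and p-values were adjusted over all genes within each contrast (Benjamini-Hochberg, threshold 0.05). RPKM values used recovered reads and the length of all annotated exons. Alternatives were edgeR 4.0.16, DESeq2 1.42.0 and voom on recovered reads, TMM scaling, pseudocounts of 0.5 and 5, no filter and a filter of 50, a replicate block, the trend of transcript length and GC content removed by loess (span 0.5), the groups compared alone, and each library left out. The fit was tested on simulated data. Promoter windows came from RefSeq (GRCm38.p6).

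The members, lists, tests and alternatives were chosen with earlier results of these data known. Named with full values are the 6 catalytic subunits, members with the smallest p in each comparison, the highest and lowest of each role, members against the majority, and up to 4 genes of each other list; other members and markers named were chosen after their values were seen. 1 gene of the other lists is not reported here.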

Additional observations from a re-analysis of the deposited data

How the results depend on the processing

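Under TAC in controls the count of members called was 10, 11 with edgeR on the recovered reads (21.6% of all genes), 16 with DESeq2 and 4 with only the groups compared, and 5 to 20 when 1 library was left out. With the length and GC trend removed it was 7, of which 4 were among the 10. For TAC in knockouts it was 0 throughout, other than 4 with voom and quality weights and 1 with both libraries that stand apart left out, a setting added after the data were seen. For knockouts against controls after sham it was 0 in all 25 alternatives. For knockouts against controls after TAC it was 7, 12 with DESeq2, 32 with voom, 30 with both libraries left out, 4 with the length and GC trend removed and 3 with that and the replicate block, and 0 to 21 when 1 library was left out. For the difference of TAC effects it was 0, 1 with no filter, 4 with DESeq2, 14 with voom, 12 with both libraries left out and 0 to 4 when 1 library was left out. Of the 10 and 7 calls, none changed sign in any alternative. The groups compared did not overlap in these genes, so leaving out libraries could not change a sign. The cause of the changes in counts was not tested.

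With the replicate number as a block the counts were 12, 0, 0, 7 and 0 in the same order. Same-numbered libraries correlated at −0.072 to 0.249 over 18 pairs, 3 of them above 0.1, and 6 of 12 libraries correlated best with their own number. The highest value was that of control sham replicate 3 with knockout TAC replicate 3, the libraries that stood apart. Whether same-numbered samples share more than a number cannot be told from these correlations.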
